A study of Drosophila melanogaster with 2 samples.

Results

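Divergent genes lie back to back on opposite strands and share the short stretch of DNA between their start sites. The 243 peaks described here are the sites of toy-eGFP chromatin immunoprecipitation sequencing (ChIP-seq) in Drosophila melanogaster embryos that fall at such shared promoters. A peak was a member when its summit, the base of highest signal, lay within 500 bp of a transcription start site (TSS) of a + strand protein-coding gene and within 500 bp of a TSS of another protein-coding gene on the - strand. The members were 243 of the 1402 conservative peaks on chromosome arms (17.3%, Wilson 95% interval 15.4 to 19.4%). A further 462 peaks (33.0%) had a TSS within 500 bp on a single strand and are called one-directional promoter peaks, and 697 had none. The study comprised 2 biological replicates of whole transgenic embryos aged 0 to 24 h, all carrying the transcription factor toy (twin of eyeless, of the Pax6 type) fused to eGFP, which was precipitated through the eGFP tag with an antibody. There was a single group and no contrast between conditions. Which promoter drives the fusion is not stated in the labels, and a possible control experiment that they name was not analysed here. Among conservative peaks, membership rested on position alone, while the conservative list itself is selected. Divergent ranked peaks that overlap a conservative peak had a median signal of 120.6, against 24.2 for those that do not.

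Head-to-head gene pairs are frequent in the compact fly genome, and many of their genes serve functions that every cell needs. Their promoters are known for the DNA replication-related element (DRE), bound by the transcription factor DREF, for sites of the insulator protein BEAF-32 and for Motif 1, bound by M1BP. Developmentally regulated fly promoters more often carry GAGA factor sites, a TATA box or an initiator. Pax6-type proteins contact DNA through a paired domain and a homeodomain. In whole embryos, fewer bound cells and less bound protein per cell cannot be told apart.

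The DNA between the start sites of 4 strong members is shown with that of a shared promoter whose peak did not pass, to let the base composition and the motif matches be compared. All are the + strand of dm6, read from the RefSeq Release 6 assembly between the 2 TSSs nearest to the summit, with none of the shown bases inside an annotated exon. Capitals mark matches, on either strand, to the 9 motifs counted later: the DRE (TATCGATA), the BEAF-32 core (CGATA, which also lies inside the DRE), the Motif 1 core (GGTCACAC), an E-box (CAGCTG), the TATA box (TATAAA), the initiator core (TCAGT), the GAGA factor site (GAGAGA), the homeodomain core (TAATTA) and part of the paired-domain consensus (TTCACGC). Tcs5/CHMP2B is chr3L:5139396-5139618, Art3/mRpS10 chr3R:15229409-15229664, CG7601/CIA30 chr3R:29736746-29736964 and CG13390/CG17294 chr2L:8376798-8377034. The Gr63a/Lamtor4 stretch, chr3L:3896604-3896899, held the ranked peak of lowest signal, 3.38, among unbound pairs whose inter-TSS stretch of 200 to 300 bp is free of exons and contains the summit. The 4 members are the strongest with a gap of 100 to 300 bp under the same conditions.
Tcs5/CHMP2B: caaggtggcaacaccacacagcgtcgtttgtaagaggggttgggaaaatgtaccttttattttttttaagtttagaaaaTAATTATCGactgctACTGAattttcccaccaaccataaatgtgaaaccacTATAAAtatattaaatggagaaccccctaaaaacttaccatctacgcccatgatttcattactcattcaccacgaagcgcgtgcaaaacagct
Art3/mRpS10: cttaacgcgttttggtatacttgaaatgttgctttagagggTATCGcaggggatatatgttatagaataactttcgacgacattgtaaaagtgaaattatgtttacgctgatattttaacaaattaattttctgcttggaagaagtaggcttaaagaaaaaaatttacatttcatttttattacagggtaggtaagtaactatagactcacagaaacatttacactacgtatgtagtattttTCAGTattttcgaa
CG7601/CIA30: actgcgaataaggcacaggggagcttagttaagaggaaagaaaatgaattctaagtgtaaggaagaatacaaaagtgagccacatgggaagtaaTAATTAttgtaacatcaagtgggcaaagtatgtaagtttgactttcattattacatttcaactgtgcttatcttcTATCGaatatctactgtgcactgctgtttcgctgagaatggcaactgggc
CG13390/CG17294: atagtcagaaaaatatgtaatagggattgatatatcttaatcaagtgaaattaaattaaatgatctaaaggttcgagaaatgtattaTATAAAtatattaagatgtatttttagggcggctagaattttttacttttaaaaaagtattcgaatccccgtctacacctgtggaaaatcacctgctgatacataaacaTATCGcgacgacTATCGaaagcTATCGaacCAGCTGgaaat
Gr63a/Lamtor4: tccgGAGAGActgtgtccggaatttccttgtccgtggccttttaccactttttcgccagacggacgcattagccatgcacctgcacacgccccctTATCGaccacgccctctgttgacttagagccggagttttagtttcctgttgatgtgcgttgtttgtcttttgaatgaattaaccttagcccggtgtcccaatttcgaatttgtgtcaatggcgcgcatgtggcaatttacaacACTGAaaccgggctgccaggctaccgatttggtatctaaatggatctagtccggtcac
The 4 strong members held 38.1%, 30.1%, 37.9% and 30.8% G and C, against 50% in the Gr63a/Lamtor4 stretch. This stretch is a single example and lies above the mean of its class. In windows reaching 100 bp to either side of the summit, divergent ranked peaks that did not pass averaged 42.7% and members 34.1%. Each of the 5 stretches had at least 1 BEAF-32 core, and CG13390/CG17294 had 3. In Tcs5/CHMP2B the homeodomain core and the BEAF-32 core overlap. None of the 5 had a DRE, a Motif 1 core or the paired-domain part.

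The 20 strongest members lay between genes of varied function, and no test was made of what these genes share. The first was Tcs5/CHMP2B (FBgn0035590 and FBgn0035589; 3L, 5139367 to 5139620, dm6), with a series signal of 759.7 in the authors' units, and the replicates' own lists gave 310.0 in replicate 1 and 443 in replicate 2. Tcs5 encodes the kinase of the KEOPS complex, which modifies tRNA, and CHMP2B a subunit of the ESCRT-III membrane-scission machinery. The next, CG5611/Mtl (FBgn0039531 and FBgn0039532; 3R, 27636041 to 27636289), had 739, with 350.1 and 393 in replicates 1 and 2. Art3/mRpS10 (FBgn0038306 and FBgn0038307; 3R, 15229396 to 15229656) had 721, with 326 and 388, and joins an arginine methyltransferase gene to a mitochondrial ribosomal protein gene. CG7601/CIA30 (FBgn0027583 and FBgn0039689; 3R, 29736717 to 29736970) had 695, with 313 and 384, and CIA30 is an assembly factor of respiratory complex I. mRpS23/CenG1A (FBgn0260407 and FBgn0028509; 2L, 13835341 to 13835573) had 691, with 343 and 358, and pairs a mitochondrial ribosomal protein gene with a GTPase of the centaurin gamma family. In each of these 5 the signal in replicate 2 was the higher.

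Among these 20, Chro/Ssl1 (FBgn0044324 and FBgn0037202; 3L, 22878780 to 22879028) had 615, with 272 in replicate 1 and 339.6 in replicate 2. Chro encodes the chromodomain protein Chromator of polytene interbands, and Ssl1 a subunit of the general transcription factor TFIIH. brm/Arl1 (FBgn0000212 and FBgn0000115; 3L, 15982912 to 15983104) had 404, with 169.8 and 239.8, where brm encodes the ATPase of the Brahma chromatin remodelling complex and Arl1 a GTPase of the Golgi. In both pairs replicate 2 was again the higher.

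The other 13 of the 20 strongest members had series signals between 369 and 579. CG13390/CG17294 (2L, 8376754 to 8376987) had 579, with 302 in replicate 1 and 272 in replicate 2. mRpL23/CG9004 (3L, 2373497 to 2373734), the third pair here with a mitochondrial ribosomal protein gene, had 554, with 254 and 306. CG1275/Elp5 (3L, 2257407 to 2257634), which holds a subunit gene of the tRNA-modifying Elongator complex, had 532, with 235 and 307. Pex11ab/CG8320 (2R, 15992380 to 15992614), with a peroxisome division gene, had 508, with 218 and 292. Atat/Shc (3L, 9426769 to 9426981), an alpha-tubulin acetyltransferase gene beside that of a receptor tyrosine kinase adaptor, had 479.7, with 224 and 253. fws/Lamtor3 (2L, 17481015 to 17481235) had 429, with 169 and 262, and pairs a subunit of the Golgi COG complex with one of the Ragulator complex of lysosomes. Mnat9/CG1792 (3R, 31616058 to 31616282) had 444, with 177 and 275, and Pdrg1/Pal1 (2R, 9959799 to 9960029), where Pal1 acts in peptide amidation, had 435, with 199 and 239. CG3437/CG3552, Fbw5/CG9147, CG11309/CG7632, tank/CG12194 and Reps/l(2)gd1 had 425, 411, 375, 370.0 and 369 in that order; l(2)gd1 acts in endosomal sorting of Notch. All 20 overlapped a thresholded peak in both replicates, where the background over all conservative peaks was 44.2%, and they were chosen for their strong signal. In 18 the signal was higher in replicate 2, against a background of 53.6%, the exceptions being CG13390/CG17294 (302 in replicate 1 and 272 in replicate 2) and Reps/l(2)gd1 (193 and 182).

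**Figure D1:**
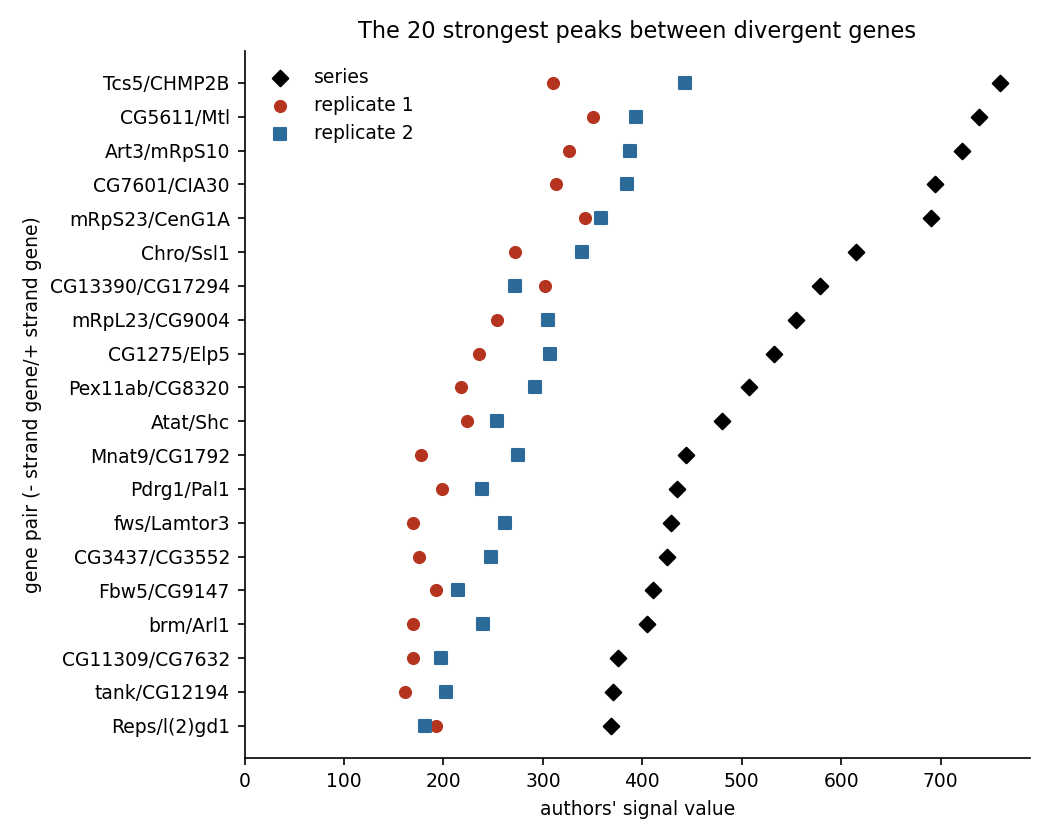
Authors' signal value (horizontal axis) of the 20 strongest peaks between divergent genes, one row a gene pair, in the series' conservative list (diamonds), in replicate 1 (circles) and in replicate 2 (squares). The series signal runs between 369 and 759.7 and exceeds that of either replicate in every row, and the square lies right of the circle in 18 rows.

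Summits sat in the space shared by both genes. Of the 243 members, 202 (83.1%, Wilson 95% interval 77.9 to 87.3%) had the summit between the 2 nearest TSSs, against 653 of the 1375 ranked peaks of the same class that did not pass (47.5%, 44.9 to 50.1%). Another 25 member summits lay inside the - strand gene, 12 inside the + strand gene and 4 where the annotated 5′ ends overlap (CG4741/Adck1, CG31808/Cyt-c-d, CG9588/Lkb1 and stx/ras, named after their values were seen). The remaining 239 were head to head, with a median gap of 278 bp between the TSSs (interquartile range 219 to 382.5, range 6 to 687). The median distance to the + strand TSS was 136 bp and to the - strand TSS 138 bp. The midpoint of the pair was within 100 bp in 171 members (70.4%), with a median distance of 59.5 bp. No test was made of these positions, since membership was chosen by distance from the TSSs.

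Where the summit fell differed with the gap, and the rule of membership ties these together by construction. A narrow gap leaves little room between the TSSs, and a gap over 500 bp admits only summits between them. How far the values below go beyond this was not tested. With gaps over 200 and up to 300 bp, 83 of 87 summits were between the TSSs and the median distance from the midpoint was 30 bp. With gaps of at most 100 bp, 4 of 28 were between them, and the median distance from the midpoint was 99.5 bp. E(z)/Cnep1r2 (3L, 10637841 to 10638180), with the gene for the histone methyltransferase subunit of Polycomb repressive complex 2, is an example: its TSSs are 16 bp apart and the summit lies 119 bp inside E(z). Its signal was 123, with 57.3 in replicate 1 and 67.4 in replicate 2. In all, 235 pairs with 470 genes held a member, and 8 pairs held 2. Across 239 head-to-head members the gap and the signal had a Spearman correlation of -0.16, a description only. Members with the farther TSS within 200 bp had a median signal of 144 (125 members), and those with it farther away had 109 (118 members). At the edge of the rule, tank/CG12194 was just inside, with its farther TSS 493 bp away and a signal of 370.0. The peak at CG31510/vig2 (3R, 25123255 to 25123594) was just outside at 505 bp, with a signal of 100.3.

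**Figure D2:**
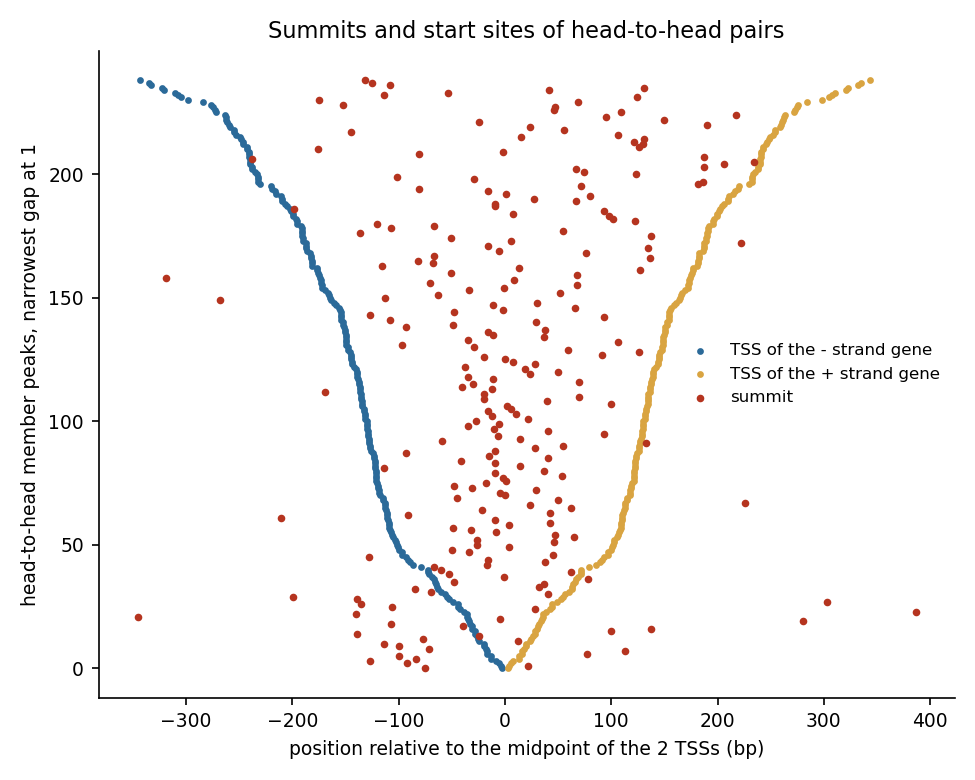
Positions of the summit and of the 2 nearest TSSs (horizontal axis, bp from the midpoint of the pair) for the 239 head-to-head members, stacked by gap with the narrowest at the bottom. Most summits lie between the - strand TSS at the left and the + strand TSS at the right. Those outside gather at the narrow gaps, which leave little room between the TSSs. With gaps of at most 100 bp, 4 of 28 summits lie between the TSSs.

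Ranked peaks at divergent promoters overlapped a thresholded peak more often than those at one-directional promoters. Such overlap is called passing here, and a ranked peak can pass in this sense without being in the thresholded list itself. In the ranked list from which the conservative list was drawn, 253 of 1628 divergent peaks overlapped a conservative peak (15.5%, Wilson 95% interval 13.9 to 17.4%), against 503 of 13986 one-directional peaks (3.60%, 3.30 to 3.92%). The odds ratio was 4.93 (2-sided Fisher's exact adjusted p = 1.01e-69), and the background over all 126842 ranked peaks on arms was 1.19%. The share was also higher in each replicate's own lists. In replicate 1, 10.1% of divergent and 3.05% of one-directional ranked peaks passed, with a background of 1.19%. In replicate 2 the shares were 17.7% and 3.19%, with a background of 0.958%, and in the pooled list, the other thresholded list of the series, they were 16.4% and 4.18%, with a background of 1.44%. The units of these tests are peaks, which are not biological replicates, so a p refers to the lists at hand; how far embryo collections vary is not covered by it.

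Among the conservative peaks, the share of members above the median series signal, and the share found in both replicates, did not differ from those of one-directional peaks past the threshold. Their median signal was 124 (interquartile range 87.9 to 181), against 113 (85.3 to 166) at one-directional promoters. Of the members, 146 of 243 (60.1%, Wilson 95% interval 53.8 to 66.0%) were above the median of all conservative peaks, against 255 of 462 (55.2%, 50.6 to 59.7%) and a background of 50% (2-sided Fisher's exact adjusted p = 0.346). That share passed against one-directional peaks with a TSS distance of 250 bp (67.1% against 53.8%, Fisher's exact adjusted p = 0.00700), as did the pooled list's (64.3% against 54.4%, adjusted p = 0.0076). The members that overlapped a thresholded peak in both replicates were 123 of 243 (50.6%, 44.4 to 56.8%), against 224 of 462 (48.5%, 44.0 to 53.0%) and a background of 44.2% (2-sided Fisher's exact adjusted p = 0.635). Of the 100 strongest conservative peaks, 26 were members, which are 17.3% of all. One-directional promoter peaks were 41 of them and 33.0% of all, and peaks away from TSSs 33 of them and 49.7% of all.

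**Figure D3:**
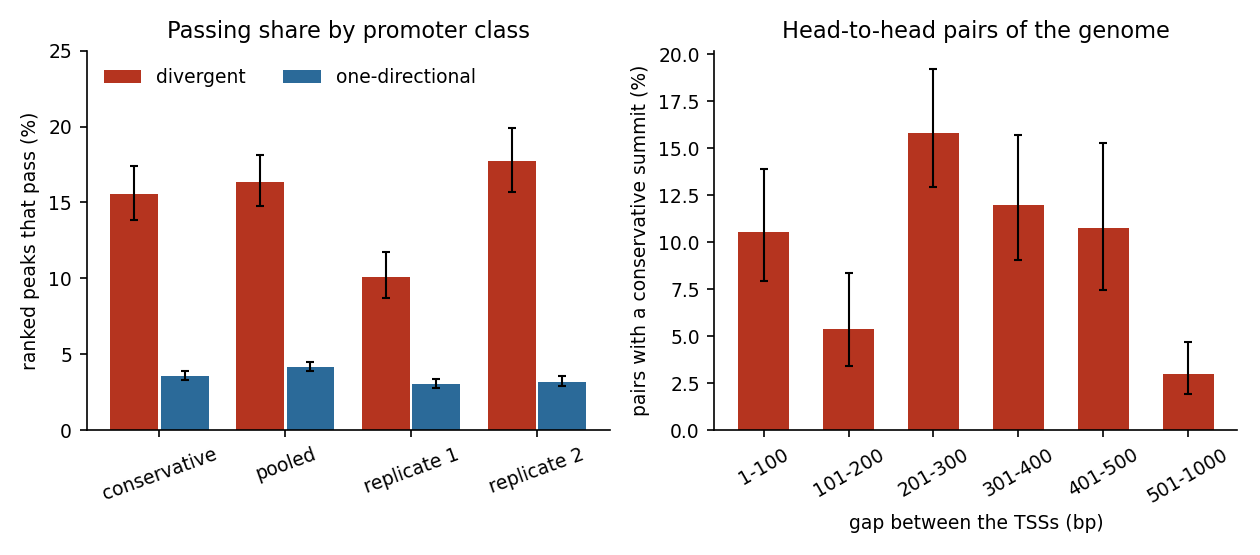
Left, share of ranked peaks that overlap a thresholded peak (vertical axis, %) at divergent and at one-directional promoters in 4 lists, with Wilson 95% intervals; the divergent bar is the higher in each list, 15.5% against 3.60% in the conservative one. Right, share of head-to-head gene pairs of the genome with a conservative summit within 500 bp of both TSSs (vertical axis, %). Pairs are classed by the gap between their closest TSSs, with Wilson 95% intervals. The share is highest at gaps over 200 and up to 300 bp (15.8%).

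The 2 replicates differed at these promoters. Members were above the median replicate 2 signal of all conservative peaks in 157 of 243 cases (64.6%, Wilson 95% interval 58.4 to 70.4%), against 246 of 460 one-directional peaks (53.5%, 48.9 to 57.99%) and a background of 50% (2-sided Fisher's exact adjusted p = 0.010). In replicate 1 the shares were 122 of 242 (50.4%, 44.2 to 56.7%) and 253 of 461 (54.9%, 50.3 to 59.4%), with a background of 50% (adjusted p = 0.266 by the same exact test). On the log2 scale, the ratio of replicate 2 over replicate 1 had a median of 0.25 in members (SD over peaks 0.44), 0.04 in one-directional peaks (SD 0.47) and -0.04 in peaks away from TSSs (SD 0.43). Members were higher in replicate 2 in 182 of 242 cases (75.2%, 69.4 to 80.2%), against 245 of 459 one-directional peaks (53.4%, 48.8 to 57.9%) and a background of 53.6%. This comparison, with an odds ratio of 2.65, was chosen after seeing the data and is a description only. Among members, 66 passed in replicate 2 alone (27.2%), against 92 one-directional peaks (19.9%) and 21.2% of all conservative peaks. In replicate 1 alone 13 members passed (5.35%), against 50 (10.8%) and 10.3% of all, and in neither 41 (16.9%), against 96 (20.8%) and 24.4% of all. Each replicate is a single biological sample of unknown depth, so the embryos, the library and its depth cannot be told apart here.

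The ratio varied within the members. The highest was at CG3104/RpS21 (2L, 2855880 to 2856219; log2 ratio 1.47), with 40.4 in replicate 1 and 112 in replicate 2, where RpS21 encodes a ribosomal protein. Faf2/Grip71 (2L, 18708530 to 18708869; 1.43), with the gene of a gamma-tubulin complex protein, had 31.9 and 86.2. Fer1HCH/Fer2LCH (3R, 30388360 to 30388699; 1.30), the genes of the heavy and light chains of ferritin, had 34.6 and 85.3. These 3 passed in replicate 2 but not in replicate 1. The lowest was at Irbp18/APP-BP1 (3L, 11098191 to 11098530; -0.94), a bZIP gene of the C/EBP family beside that of a NEDD8-activating enzyme subunit, with 70.1 and 36.5. RpL34a/Trmt61 (3R, 26059166 to 26059505; -0.68) had 49.0 and 30.6, and Trmt61 encodes a tRNA methyltransferase subunit. Pax/Alp12 (2L, 19423646 to 19423985; -0.65), where Pax is paxillin, a focal adhesion protein and no Pax family factor, had 140.3 and 89.7. Across 242 members the signals of both replicates had a Spearman correlation of 0.74, and across 459 one-directional peaks 0.70. These peaks were selected for repeating between peak sets, so the correlation is a description. G and C content and the log2 ratio had a Spearman correlation of 0.09 over members, whose median log2 ratio was between 0.13 and 0.31 in each of 4 classes split at the quartiles of G and C content over all conservative peaks.

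**Figure D4:**
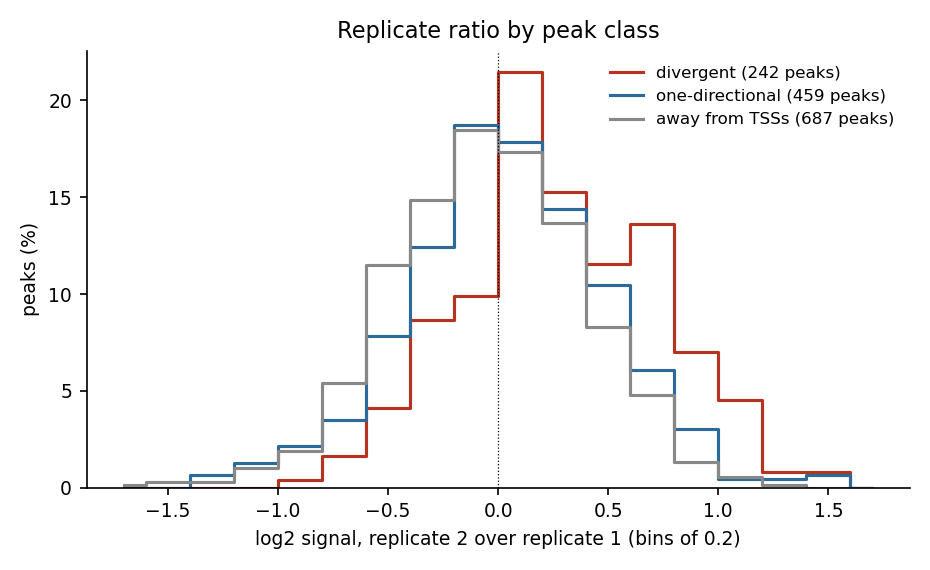
Share of peaks (vertical axis, %) by the log2 ratio of replicate 2 to replicate 1 signal (horizontal axis, bins of 0.2) for divergent, one-directional and other conservative peaks. The divergent curve sits to the right, with a median of 0.25 against 0.04 at one-directional promoters.

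The weakest members overlapped stronger ones. Signals below 29 were found at 4 members: CG31224/CstF64 (18.4), alien/CG18661 (6.80), snRNP-U1-C/gukh (4.92) and CG12099/Pex10 (4.33). Each was the second peak at its pair, beside one with a signal of 72.4, 93.4, 77.5 and 89.5 in the same order, and each shared the replicates' peak with it. These were named after their values were seen. In all, 7 members overlapped a stronger conservative peak, against 19 one-directional peaks. Without such peaks 236 members were left, and the share above the median was 61.4% against 55.3% (2-sided Fisher's exact adjusted p = 0.214).

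Cytoplasmic ribosomal protein genes were in bound pairs more often than any other of the 11 lists apart from the 4 Polycomb and trithorax genes. The lists were drawn by gene symbol, so each is partial and leaves out genes of the same function with other symbols. Of all 4875 genes in head-to-head pairs with a gap of at most 1000 bp, 460 belonged to a pair with a conservative summit within 500 bp of both TSSs, called a bound pair, a background of 9.44%. The cytoplasmic ribosomal protein list had 18 of 56 (32.1%, Wilson 95% interval 21.4 to 45.2%). The strongest were RpS27/Nup37 (3R, 25247430 to 25247616) at 295, with 104 in replicate 1 and 182 in replicate 2, RpL41/NaCP60E at 200.3 and RpL32/CG7943 at 188. The higher frequency of peaks at ribosomal protein genes was known from earlier work on these data and is no independent evidence. One member, Dref/RpL13 (2L, 9967129 to 9967468), chosen after its values were seen, lay between RpL13 and the gene of DREF itself, with a signal of 105 and with 54.996 and 44.0 in replicates 1 and 2.

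Mitochondrial ribosomal protein genes were near the background in number but high in signal: 6 of 58 were in a bound pair (10.3%, Wilson 95% interval 4.83 to 20.8%), and Art3/mRpS10, mRpS23/CenG1A and mRpL23/CG9004 ranked 3, 5 and 8 among the 243 members by series signal. Genes with symbols of RNA polymerase subunits, TFII factors, TBP-associated factors or Mediator subunits (Polr, TfII, Taf and MED) had 8 of 55 (14.5%, 7.56 to 26.2%), a list that does not hold Ssl1. They were led by 140up/Polr2B at 169.8, CG11247/Polr2H at 147 and Taf5/Pex6 at 144, the first with a core subunit gene of RNA polymerase II. Aminoacyl-tRNA synthetase genes had 4 of 23 (17.4%, 6.98 to 37.1%), led by GluProRS/AP-1sigma at 196, Hem/IleRS at 123 and SerRS/CG17260 at 117. Genes with the symbols eIF, eEF and eRF of translation factors had 2 of 26 (eIF1 at 107 and eIF3a at 104), and those with the symbols Rpn, Rpt and Pros of the proteasome 2 of 26 (Rpn5 at 79.4 and Rpn3 at 71.4). Of the splicing genes with the symbols snRNP, Sm, Prp, Sf3 or U2af, 2 of 26 were in a bound pair (Sf3b6 at 84.7 and snRNP-U1-C at 77.5), and each of these 3 shares was 7.69%. Members outside that list hold further splicing genes, such as Phf5a and SNRPG, named after their values were seen. Of the replication genes with the symbols Mcm, Orc, PCNA, Psf, RfC, PolA or PolE, 1 of 15 was in a bound pair (6.67%). This was Mcm2, a subunit of the replicative helicase, at RPA1/Mcm2 (3R, 8264731 to 8265070) with 116; RPA1, a subunit of the single-strand binding protein, is outside the list. Oxidative phosphorylation genes had 1 of 41 (2.44%), and 2 of them were at members, ND-ASHI/Fum1 at 293 and TppII/ND-MWFE at 134; pairs were counted at their closest TSSs, and the ND-ASHI/Fum1 summit lay beyond 500 bp of at least 1 of those. Of the 4 Polycomb and trithorax genes in head-to-head pairs, E(z) and brm were in a bound pair. The last list joins genes of retinal determination, the pathway in which toy acts, with other Pax family genes. None of its 15 genes was in a head-to-head pair. No test was made of these lists.

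Across the genome, 230 of 2462 head-to-head pairs with a gap of at most 1000 bp had a conservative summit within 500 bp of both TSSs (9.34%, Wilson 95% interval 8.25 to 10.6%), which is the background for pairs. Counted in each replicate's own thresholded list, whether or not the other replicate had them too, such pairs were 142 in replicate 1 (5.77%) and 215 in replicate 2 (8.73%). The share was 10.5% (7.92 to 13.9%) at gaps of up to 100 bp, 5.39% (3.44 to 8.36%) at gaps of up to 200 bp and 15.8% (12.9 to 19.2%) at gaps of up to 300 bp, each class starting where the one before it ended. It was 11.99% (9.05 to 15.7%) up to 400 bp, 10.7% (7.44 to 15.3%) up to 500 bp and 3.01% (1.91 to 4.70%) up to 1000 bp. These gaps are between the closest TSSs of the 2 genes, while the gaps of members given above are between the TSSs nearest to the summit. The 2 sets of gap classes are therefore not the same. No test was made between the classes. The class up to 200 bp was lower than the class up to 300 bp in both replicates: 3.29% against 11.1% in replicate 1 and 4.79% against 15.2% in replicate 2. The window within 500 bp of both TSSs narrows steadily as the gap widens, most of all in the last class. This lowers the share at wider gaps by construction. A ranked peak of any strength was found at 1213 pairs (49.3%).

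Member summits lay in DNA poor in G and C. In windows reaching 100 bp to either side of the summit, the members averaged 34.1% ± 6.78 G and C (SD, 243 peaks). One-directional peaks averaged 37.3% ± 8.26 (462 peaks) and conservative peaks away from TSSs 38.2% ± 8.33 (697 peaks). The mean was 42.7% ± 9.68 at the 1375 divergent ranked peaks that did not pass. It was 48.1% ± 8.65 in windows moved from the member summits by 1000 bp toward higher coordinates. In the central 41 bp the means were 30.7% in members, 34.1% at one-directional peaks and 42.6% at divergent peaks that did not pass. The profile of members fell to 29.3% beside the summit. A trough there was shared by the other conservative peaks, at 34.0% both for one-directional peaks and for peaks away from TSSs. Across the 243 members G and C content and signal had a Spearman correlation of -0.20, a description only.

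**Figure D5:**
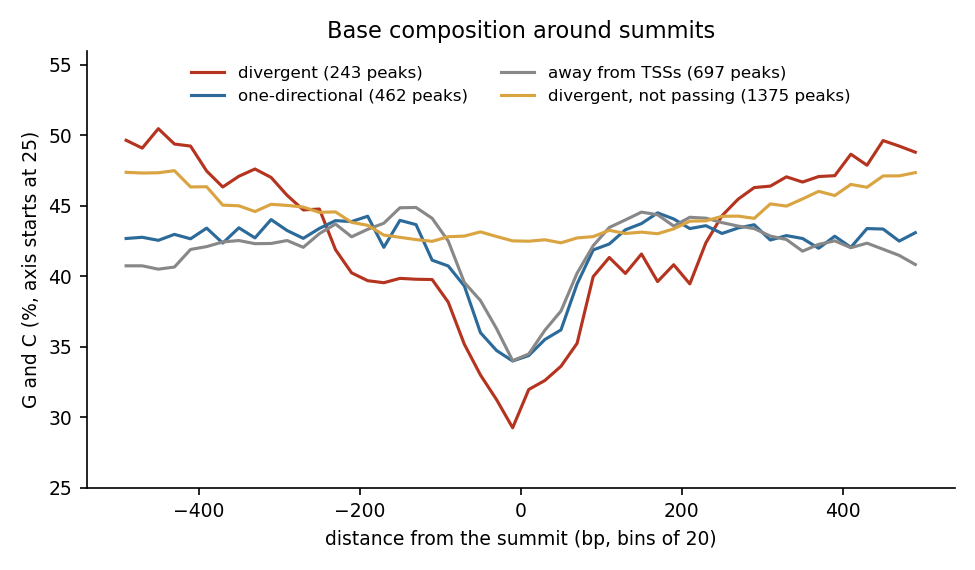
Mean G and C content (vertical axis, %, starting at 25) against the distance from the summit (horizontal axis, bp, bins of 20) for the divergent members, one-directional and other conservative peaks and the divergent ranked peaks that did not pass. The members have the lowest trough, 29.3%, while the curve of the divergent peaks that did not pass stays above 40%.

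GAGA factor sites and the initiator core were rarer, and the E-box was more frequent, at divergent than at one-directional promoter peaks. The 9 motifs were counted in windows reaching 100 bp to either side of the summit, and these 3 passed the test. GAGA factor sites were found at 5 of 243 members (2.06%, Wilson 95% interval 0.882 to 4.73%), against 60 of 462 one-directional peaks (13.0%, 10.2 to 16.4%; 2-sided Fisher's exact adjusted p = 3.16e-06). The initiator core was found in 25.5% (20.4 to 31.3%), against 37.7% (33.4 to 42.2%; Fisher's exact adjusted p = 0.00624). The E-box was found in 12.3% (8.79 to 17.1%), against 6.49% (4.59 to 9.12%; Fisher's exact adjusted p = 0.0310). Of all 19630 protein-coding TSSs, windows of the same length around the TSS held these motifs in 9.74%, 43.3% and 13.5%. Divergent ranked peaks that did not pass held them in 4.87%, 30.1% and 13.4%. The E-box and initiator differences did not pass with windows reaching 50 bp to either side, with 1 TSS per gene or in replicate 1 alone (adjusted p of 0.816, 0.206 and 0.864 for the E-box and 0.494, 0.132 and 0.131 for the initiator, by the same exact test). Neither passed with a TSS distance of 1000 bp, nor the E-box with 250 bp, nor the initiator in windows reaching 200 bp (49.8% against 57.1%, Fisher's exact adjusted p = 0.0758), while the GAGA factor site passed under each alternative run.

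The other 6 motifs did not pass in these windows. The TATA box stood at 44.9% in members and 35.9% in one-directional peaks (2-sided Fisher's exact adjusted p = 0.0517), the BEAF-32 core at 33.7% and 26.4% (adjusted p = 0.0804), the homeodomain core at 21.0% and 16.2% (adjusted p = 0.183) and the DRE at 5.35% and 3.46% (adjusted p = 0.304). Motif 1 was found in 2.47% and 2.60%, and the paired-domain part in 1.23% and 1.30%, each with a Fisher's exact adjusted p of 1. At all TSSs the shares were 26.8% for the TATA box, 37.2% for the BEAF-32 core, 9.36% for the homeodomain core, 6.42% for the DRE, 5.67% for Motif 1 and 1.59% for the paired-domain part. In the same order, divergent ranked peaks that did not pass held them in 23.5%, 36.1%, 12.9%, 7.27%, 5.16% and 1.16%. The BEAF-32 core, the DRE and Motif 1 were thus no more frequent in members than in that class. The TATA box passed without peaks that overlap a stronger one (45.8% against 36.6%, Fisher's exact adjusted p = 0.0479), a setting added after seeing the data. The BEAF-32 core passed with a TSS distance of 1000 bp (33.4% against 24.8%, Fisher's exact adjusted p = 0.0391). The sets differ in G and C content, as given above, and its part in these motif differences was not tested.

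Matches to the DRE and to Motif 1 were denser beside the member summits than on them. In windows reaching 200 bp to either side the DRE was found at 16.9% of members, against 5.19% of one-directional peaks (2-sided Fisher's exact adjusted p = 4.01e-06), and Motif 1 at 13.6%, against 5.19% (adjusted p = 0.000485). The BEAF-32 core stood at 59.7% and 45.5% (Fisher's exact adjusted p = 0.000649) and the TATA box at 60.9% and 48.3% (adjusted p = 0.0023). At 100 to 150 bp from the summit, where the median member has a TSS, there were 8.64 DRE matches per 100 members, against 1.52 per 100 one-directional peaks, and within 50 bp 2.88 against 2.16. Motif 1 matches were densest at 150 to 200 bp, with 6.996 per 100 members and 1.52 per 100 one-directional peaks, and within 50 bp there were 0.412 and 1.52. E-box matches were likewise densest at 100 to 150 bp, with 20.6 per 100 members and 9.52 per 100 one-directional peaks. The homeodomain core was densest within 50 bp, with 16.9 and 9.96. A window reaching 200 bp held the nearer TSS at 224 of 243 members and both TSSs at 125, against its TSS at 273 of 462 one-directional peaks. The nearest TSS was a median of 103 bp from member summits and 173 bp from one-directional summits. The part of these distances in the motif differences was not tested. A match shows that the letters are present and not that a factor binds there.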

How the data were processed

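The deposited lists are of ChIP-seq peaks on dm6, per the labels, from an irreproducible discovery rate (IDR) procedure; the sources used here do not give the aligner, the peak caller or how signal was scaled. Each peak has the authors' signal value, and the deposited ranked lists hold a −log10 of the global IDR, which was at least 2.00 for every conservative peak. Read depth is unknown. The thresholded lists held 925 peaks in replicate 1 and 1098 in replicate 2, and the ranked lists 81037 and 115142. The series' 2 ranked lists each have 8 further columns that no label ties to a replicate, and these were left out. A peak's replicate signal was that of the strongest overlapping peak in that replicate's ranked list. A ranked peak passed where it shared any base with a thresholded peak.

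TSSs were the 5′ ends of protein-coding transcripts of Ensembl release 115 on BDGP6.54, whose assembly is that of dm6, with 19630 sites of 13968 genes. Genome-wide pairs were neighbouring TSSs, the - strand one first, with the closest sites used for each 2 genes. Printed coordinates are 1-based. Shares have Wilson 95% intervals, which cover counting error only. Counts were compared with one-directional promoter peaks by 2-sided Fisher's exact test in SciPy 1.17.1, with a threshold of 0.05 after Benjamini-Hochberg adjustment over 3 tests of the series lists, over 2 of the replicate signals and over 9 motifs. Motifs were counted as present or absent on either strand. The routines were tested on simulated data.

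Members, gene lists and motifs were chosen with earlier results of these data known. Named pairs were those of the 20 strongest members, up to 3 strongest members per list, the 3 highest and 3 lowest replicate ratios, and the peaks on either side of the 500 bp limit.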

Additional observations from a re-analysis of the deposited data

How the results depend on the processing

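Of 121 results recomputed under an alternative, 92 kept their direction and side of the threshold or stayed within the limit for values without a test. The higher passing share of divergent ranked peaks was among them under each alternative run. Its size varied with the TSS distance: 24.6% against 5.36% of one-directional ranked peaks at 250 bp, and 7.38% against 2.53% at 1000 bp. The count of 243 members fell to 161 with a TSS distance of 250 bp and to 126 at an IDR of 0.001, and was 148 to 221 when 1 replicate's lists were left out (148 from replicate 1 alone). The share above the median signal, 60.1%, passed against one-directional peaks at 250 bp (67.1%), in the pooled list (64.3%) and in replicate 2 alone (62.0%, against 57.4% in replicate 1 alone). Of the 9 motifs, 3 passed in the main windows, 1 with 1 TSS per gene, 1 in windows reaching 50 bp to either side, 6 in windows reaching 200 bp and 1 to 3 with 1 replicate left out. Fewer peaks or shorter windows enter some of these settings; otherwise the cause was not tested. Motif 1 turned round in windows reaching 200 bp to either side (13.6% of members against 5.19%). The share of head-to-head pairs with a peak, 9.34%, was 11.4% with gaps of at most 500 bp, 11.4% in the pooled list and 5.77 to 8.73% with 1 replicate left out. Settings added after seeing the data left the share higher in replicate 2 at 75.3% without shoulder peaks, 77.2% among peaks passing in both replicates and 75.8% without arm X. There is 1 group, so no paired analysis was possible because no groups were compared. With 2 collections, no input analysed here and unknown depth, the spread between embryos and the level of unspecific promoter signal were not measured.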

Other observations

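The share of divergent promoter peaks was lower on X than on the other arms. On X, 23 of 289 conservative peaks were members (7.96%), against 220 of 1113 on the other arms (19.8%). The share of head-to-head pairs with a conservative summit was 4.92% on X (19 of 386, Wilson 95% interval 3.17 to 7.56%), 7.58% on 2R, 10.2% on 2L, 11.3% on 3L and 11.6% on 3R. In replicate 1's own list it was 2.85% on X and 4.79 to 7.44% on the other long arms. In replicate 2's own list it was 4.40% and 6.99 to 11.3%. Chromosome 4, which carries toy itself, had 0 of 11 pairs with a summit, which allows a share of up to 25.9% by the Wilson interval. The arms were compared after seeing the data, without a test, and embryo sex was not collected per the labels.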
